A study of Mus musculus with 3 samples.

Results

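Dense clusters of FOXF1 sites are stretches of chromatin where at least 5 FOXF1 binding sites, each found in both replicates, follow one another at steps of 5 kb or less. The members were chosen by the measured summit positions alone. A summit of replicate 1 and a summit of replicate 2 were paired when each was the nearest to the other and they lay at most 100 bp apart, the shared site was set midway, and shared sites were chained while neighbours were at most 5 kb apart. This gave 443 dense clusters, which held 2563 of the 51013 shared sites, or 5.02% (exact 95% binomial interval 4.84% to 5.22%, counting error only). The other 48450 shared sites comprised 20350 in chains of 2 to 4 and 28100 single sites.

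FOXF1 was mapped by chromatin immunoprecipitation and sequencing (ChIP-seq) in lungs taken whole from fetuses of wild-type C57BL/6 mice at embryonic day 18.5, shortly before birth. There was 1 group, FOXF1 ChIP, with 2 biological replicates, each a pool of 3 lungs, set against a 2% input sample. Chromatin was fixed in 1% formaldehyde and fragmented by micrococcal nuclease and sonication, and 10 µg of it was precipitated with 7 µg of a FOXF1 antibody. A whole lung mixes endothelial, mesenchymal, epithelial and blood cells, so a site cannot be assigned to a cell type from these files, and fewer bound cells of a type and weaker binding per cell cannot be told apart. No expression values came with the sites, so the tissue label was not checked against marker genes.

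FOXF1 is a forkhead transcription factor of the lung mesenchyme and endothelium. Its loss in mice impairs the growth of lung vessels, and in humans FOXF1 mutations and deletions cause alveolar capillary dysplasia. Forkhead factors bind DNA through a winged-helix domain that reads a core close to TGTTTAC. Regulatory regions of lineage genes often occur as runs of neighbouring enhancers, and a chain of binding sites over one locus is one way such a run shows in ChIP-seq data.

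The sequences that could be shown are those where a clustered site fell in a RefSeq promoter, taken as 250 bases before to 50 after a start (GRCm38.p6, which is mm10). Of 32817 distinct promoter windows, 92 held a clustered site. They belonged to 85 genes, 64 of them protein-coding, and to 83 distinct sites in 74 clusters, so some windows share a site. The stretches below run 60 bases to each side of the site where the window allows, 5′ to 3′ on the strand of the gene, and end at most 29 bases past the start. Capitals mark a match to TGTTTAC or TGTTTGC on either strand. The shared site is base 61 of each stretch. The first 4 are the clustered promoters with the highest mean scores (the mean of both replicates' summit scores) among those with a match, Cald1 and Mcam come from the gene lists, and Egfl7 shows a high site with no match. Apart from Cald1 and Mcam, they were picked after their values were seen.
2900052L18Rik: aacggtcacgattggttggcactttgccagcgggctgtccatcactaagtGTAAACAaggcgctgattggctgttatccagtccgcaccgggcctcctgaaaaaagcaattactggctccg
Fendrr: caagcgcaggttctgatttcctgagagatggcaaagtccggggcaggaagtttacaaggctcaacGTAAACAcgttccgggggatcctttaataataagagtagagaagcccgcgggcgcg
Hdac7: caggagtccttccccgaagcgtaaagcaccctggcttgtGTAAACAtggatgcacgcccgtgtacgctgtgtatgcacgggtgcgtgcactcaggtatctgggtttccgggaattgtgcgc
Gpr146: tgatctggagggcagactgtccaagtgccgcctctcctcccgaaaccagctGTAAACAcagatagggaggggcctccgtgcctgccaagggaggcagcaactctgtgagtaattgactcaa
Cald1: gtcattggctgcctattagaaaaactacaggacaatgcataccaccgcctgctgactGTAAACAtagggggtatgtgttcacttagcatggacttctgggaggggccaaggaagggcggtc
Egfl7: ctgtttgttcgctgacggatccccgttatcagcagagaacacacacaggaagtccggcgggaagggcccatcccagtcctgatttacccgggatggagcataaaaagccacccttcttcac
Mcam: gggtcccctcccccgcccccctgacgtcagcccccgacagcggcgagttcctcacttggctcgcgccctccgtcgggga

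These stretches lie at chr11:120231593-120231713 (2900052L18Rik, minus strand), chr8:121083184-121083304 (Fendrr, minus), chr15:97831797-97831917 (Hdac7, minus), chr5:139389790-139389910 (Gpr146, plus), chr6:34598402-34598522 (Cald1, plus), chr2:26583739-26583859 (Egfl7, plus) and chr9:44134608-44134686 (Mcam, plus). The centre of the forkhead match lay 7 bp from the site in 2900052L18Rik, 8 bp in Fendrr, 18 bp in Hdac7 and 6 bp in Gpr146. In Cald1, the gene of caldesmon, an actin-binding protein, the match sat on the site itself, at 0 bp. The Egfl7 and Mcam stretches held neither core. Adgrf5 also had a clustered site in its promoter window, 45 bases past the start, and its sequence is not shown.

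The share with a forkhead core was higher in promoters with a clustered site, with intervals apart only for matches close to the site. At least 1 of the 2 cores was present in 13 of 92 (14.1%, exact 95% interval 7.74% to 23.0%), against 370 of 5063 promoters with another shared site (7.31%, 6.61% to 8.06%), and these intervals overlap. A match centred within 20 bp of the site was present in 8 of 92 (8.70%, 3.83% to 16.4%), against 128 of 5063 (2.53%, 2.11% to 3.00%), and these do not. Of these 8 windows, 2 belong to Gm41638 and share a site and a match. The score of the site moved with these shares: a site in the highest 10% of mean scores was in 16 of 92 clustered promoters, against 218 of 5063 others. Among these promoters, a core was found in 4 of 16 clustered ones (25%, 7.27% to 52.4%), against 59 of 218 others (27.1%, 21.3% to 33.5%). Within 20 bp of these high sites it was 4 of 16 (25%), against 31 of 218 (14.2%, 9.87% to 19.6%), and these intervals overlap. The intervals treat windows as independent, which overlapping promoters are not.

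Other cores were searched on both strands of the same windows. TGTTTAC alone was in 7.61% of clustered promoters, 4.11% of promoters with another shared site and 3.65% of all promoters, and TGTTTGC in 7.61%, 3.42% and 5.06%. The ETS core AGGAAG, read by a factor family central to endothelium, did not stand apart, at 34.8%, 34.7% and 35.4%. The E-box CAGCTG was in 28.3% of clustered promoters (exact 95% interval 19.4% to 38.6%). It was in 15.2% of promoters with another shared site (14.2% to 16.2%) and 16.3% of all (15.9% to 16.7%), intervals that lie below that of clustered promoters. The SOX core ACAATG was in 7.61%, 7.05% and 12.6%, the GATA core AGATAA in 9.78%, 5.31% and 11.2%, the AP-1 core TGANTCA in 5.44%, 3.91% and 7.81%, and the TEAD core GGAATG in 16.3%, 11.9% and 14.7%. The NFI palindrome was in 0 of 92 clustered promoters, which allows a share of up to 3.93%, and in 0.04% of promoters with another shared site. Median GC content was 60.7% in clustered promoters, 62.3% in those with another shared site and 52.7% in all. A match is a string of letters and no proof of contact, and promoters hold few of the clustered sites.

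Most clusters were short runs. Chains of 5 made up 243 of the 443 (54.9%), 120 had 6 sites, 46 had 7 and 34 had 8 or more, of which 9 had 10 or more. The largest, with 12 sites each, lay in or over Magi1, Pdgfb and Col4a1. Clusters spanned a median of 11522 bp (3834 to 34419 bp), together 5309 kb, and held a median of 4.92 sites per 10 kb (3.06 to 13.0). The 2120 steps between neighbouring sites had a median of 2332.5 bp, 8 of them were 500 bp or less, and the shortest was 393 bp, so the sites of a cluster were mostly kilobases apart.

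**Figure D1:**
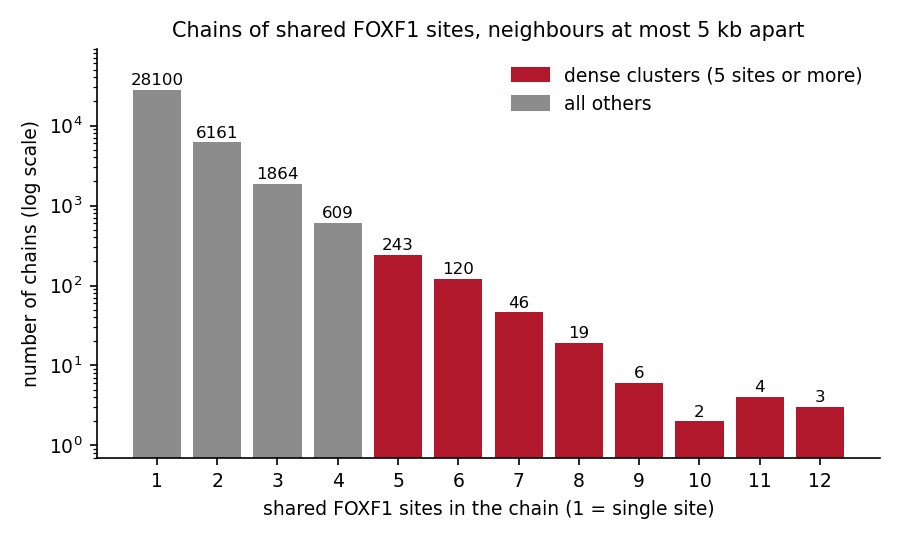
Number of chains (log axis) by the number of shared FOXF1 sites they hold, dense clusters in red and all other chains in grey. The counts fall from size to size without a break at 5 sites, with 243 chains of 5 beside 609 chains of 4.

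The cut at 5 sites and 5 kb fell within a continuous range. Chains of 5 had a median span of 9810 bp and median scores of 49.7 in replicate 1 and 20.6 in replicate 2, and the 609 chains of 4, just outside, had 7649 bp, 50.5 and 21.9. The largest steps inside a cluster were 5000 and 4996 bp, and the nearest shared site outside any cluster was 5003 bp away. For 85 clusters the next shared site lay within 6 kb. Clusters also neighboured each other: 9 pairs were at most 20 kb apart and 4 at most 10 kb. Cyth3, an exchange factor for ARF GTPases, carried 3 clusters in a row (chr5:143614701-143628053, chr5:143633179-143648292 and chr5:143660083-143670074), which held 17 of its 18 shared sites. Rara, a retinoic acid receptor, carried 2 clusters 6300 bp apart with 15 of its 18 shared sites.

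Clusters occurred on every chromosome with more than 1 shared site. Chromosome 8 had the largest share of its shared sites in clusters, 224 of 2828 (7.92%, 40 clusters), and chromosome 16 the smallest, 55 of 1868 (2.94%, 10 clusters). On the X chromosome it was 32 of 1066 (3.00%, 6 clusters).

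Clustered sites scored only slightly higher than the rest. The deposited score of a summit is a −log10 value of the peak caller, higher for stronger enrichment over input. Its median was 48.9 in clustered sites against 44.1 in all other shared sites in replicate 1, and 20.3 against 19.1 in replicate 2. Both ends of the range were better filled in the clusters: 15.3% of clustered sites were in the highest 10% of replicate 1 scores, against 9.79% of the others, and 12.3% were in the lowest 10%, against 9.99%. In replicate 2 the highest 10% held 13.9% against 9.72%, and the lowest 10% 13.0% against 10.5%. Of the 1000 highest sites by mean score, 86 were clustered (3.36% of clustered sites), against 914 of the others (1.89%). Chains of 4 had as many high sites as clusters, 15.9% in replicate 1 and 15.0% in replicate 2, and single sites had 8.17% and 8.31%. The scores come from the summits that chose the members, so these values are given without a test.

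**Figure D2:**
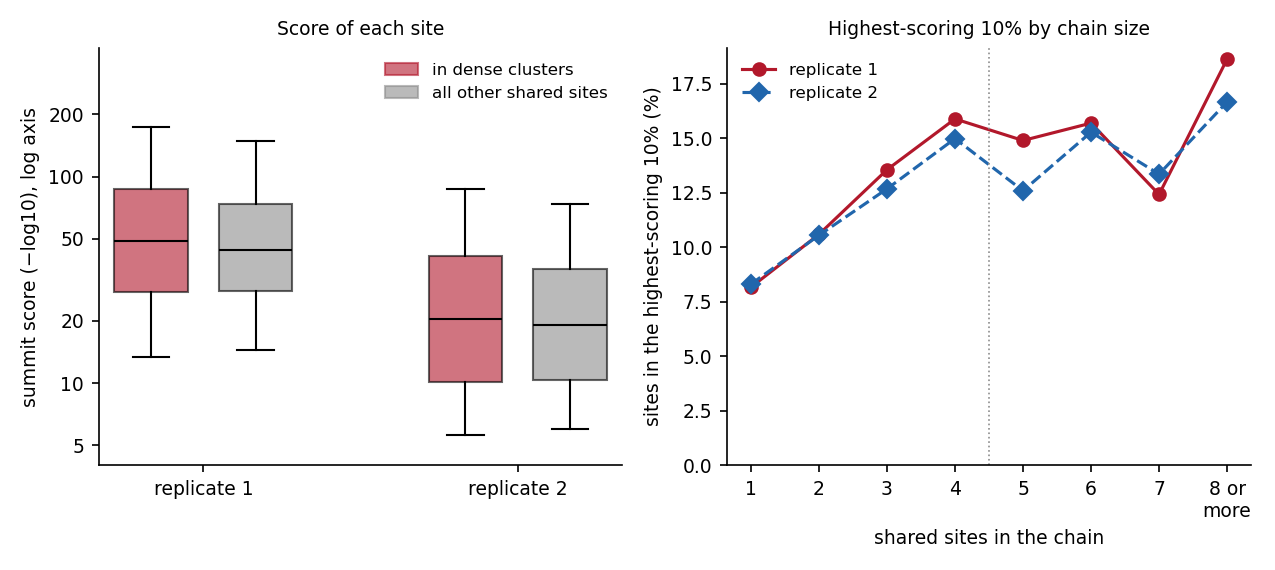
Left, summit scores (log axis) of sites in dense clusters and of all other shared sites in each replicate; boxes show quartiles and median, whiskers the 5th and 95th percentiles. Right, the share of sites in the highest-scoring 10% by chain size, which climbs up to chains of 4 (15.9% and 15.0%) and shows no step where clusters begin, right of the dotted line.

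Scores within a cluster were uneven, and both replicates mostly had the same site highest. The highest site was the same in both replicates in 369 of 443 clusters (83.3%), and it held a median of 35.4% of the cluster's summed score in replicate 1 and 38.2% in replicate 2. The highest site scored a median of 6.62 times the lowest in replicate 1 and 8.48 times in replicate 2. It was an outermost site in 157 clusters (35.4%), where 34.6% of clustered sites are outermost. The order of the sites was close between replicates, with a median Spearman correlation of 0.90 over the sites of a cluster, a description over 5 to 12 sites each. Across sites, the Spearman correlation of the replicates' scores was 0.935 over the 2563 clustered sites, against 0.880 over the 48450 others. This was not particular to clusters: it was 0.938 in chains of 4, 0.909 in chains of 2 to 4 and 0.856 in single sites. In 185 clusters (41.8%) no site reached the highest 10% of replicate 1, in 159 just 1 did, and in 99 there were 2 or more.

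Summits seen in only 1 replicate were rarer inside clusters, which are built from paired summits. In replicate 1, 616 of 3179 summits inside cluster spans were unpaired (19.4%), against 53.5% outside, and in replicate 2 it was 333 of 2896 (11.5%), against 16.9%. The unpaired ones were low, with median scores of 7.76 beside 48.9 for paired summits in replicate 1 and 8.72 beside 20.3 in replicate 2.

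The clusters with 12 sites differed in how their scores were spread. Pdgfb, the ligand by which endothelium recruits pericytes, had 12 shared sites within 5 kb and all 12 were in 1 cluster (chr15:80000779-80029091). From its first to its last site, replicate 1 scores were 46.9, 20.3, 100.8, 23.8, 16.2, 35.3, 91.6, 53.8, 135, 55.3, 50.8 and 46.0. Replicate 2 scores were 16.2, 5.04, 44.6, 9.57, 7.78, 11.5, 64.9, 26.9, 72.7, 23.7, 12.7 and 10.8. Sites 3, 7 and 9 were the highest in both replicates and lay at 4.05, 14.2 and 19.0 kb from the first.

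Col4a1, a basement membrane collagen chain, had 18 of its 25 shared sites in 2 clusters. The larger one lay wholly inside the gene (chr8:11252197-11285610), with scores between 17.7 and 119 in replicate 1 and between 4.60 and 63.4 in replicate 2. Its highest site differed between replicates: the first site led in replicate 1 (119, with 47.3 in replicate 2), and the site at 27.1 kb led in replicate 2 (63.4, with 114 in replicate 1). Magi1, a scaffold of cell junctions, held a 12-site cluster (chr6:94171426-94191136) ruled by 1 site, at 18.3 kb, with scores of 244 and 135. The next highest site of that cluster reached 120 and 41.6, and the lowest 6.10 and 6.67.

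Ehd4, which acts in endocytic recycling, carried 11 sites (chr2:120103030-120132090), of which 6 were in the highest 10% of replicate 1 and 5 in that of both replicates. Elk3, an ETS repressor of endothelium, had the longest cluster of all, 11 sites over 34419 bp (chr10:93276575-93310993), topped by its last site at 172 and 90.9. Pald1, a phosphatase-domain protein of endothelium, had 11 sites up to 176 and 85.3, and Afap1l1, an actin adaptor, 11 sites up to 111 and 54.8. Srgap1, a GTPase-activating protein of Slit-Robo signalling, had 10 sites up to 174 and 80.5. The 9-site clusters in Arhgef3, Ablim1 and Rnf144a reached 195 and 104, 157 and 72.9, and 195 and 99.9. The 8-site cluster 1217 bp from Bahcc1 (chr11:120217194-120231653) peaked at its last site, 187 and 106, which is the 2900052L18Rik promoter site shown above. Tbx3, a T-box factor of lung mesenchyme, had all 9 of its shared sites in 1 cluster (chr5:119667728-119685152), with scores of 95.6, 13.4, 158, 32.1, 16.7, 17.7, 57.3, 4.38 and 36.6 in replicate 1 and 33.3, 6.67, 87.7, 15.3, 5.48, 5.595, 29.1, 4.10 and 12.7 in replicate 2.

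Egfl7, a secreted regulator of vessel formation, had 10 sites from chr2:26570658 to chr2:26585247, one of them in the promoter stretch shown above. Their replicate 1 scores ran 36.6, 94.5, 50.8, 10.2, 108, 122, 98.5, 18.9, 131 and 6.04, and replicate 2 scores 14.8, 43.7, 22.1, 5.10, 54.3, 57.0, 47.5, 7.62, 92.7 and 4.20. The promoter site, 66 bases before the start, was the highest in both. Acvrl1, the endothelial ALK1 receptor for BMP9 and BMP10, had all 8 of its shared sites in 1 cluster (chr15:101128958-101148107). Its replicate 1 scores were 56.9, 49.9, 217, 26.3, 16.2, 6.10, 27.8 and 163, and its replicate 2 scores 42.8, 17.6, 115, 14.1, 9.57, 6.67, 20.5 and 85.3, so the sites at 5.22 and 19.1 kb from the first stood above the rest in both replicates.

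**Figure D3:**
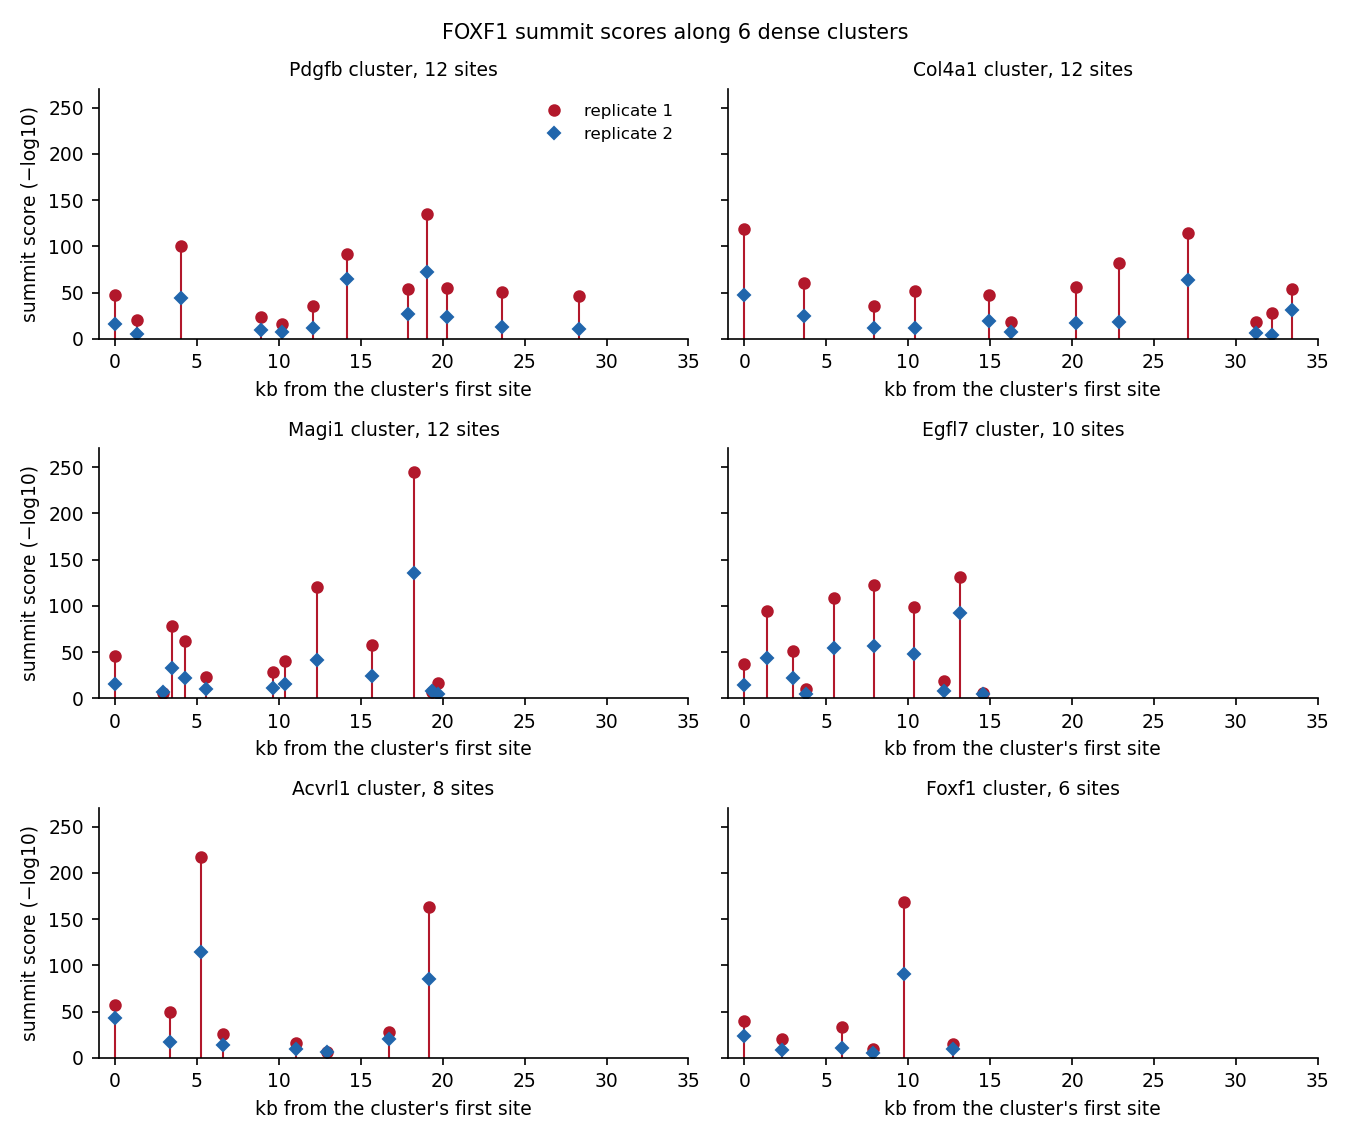
Summit scores (−log10) of each shared site along 6 dense clusters, red circles with stems for replicate 1 and blue diamonds for replicate 2, against the distance in kb from the cluster's first site. Magi1 and Foxf1 each have 1 dominant site (244 and 168 in replicate 1), Acvrl1 has 2, and Pdgfb, Col4a1 and Egfl7 have several.

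The clusters with the highest mean score had between 5 and 9 sites. Bcas3, a cytoskeletal protein with a role in endothelial migration, had 18 of its 47 shared sites in 3 clusters. One of these (chr11:85561460-85578273, 6 sites) averaged 134, with replicate 1 scores of 202, 171, 27.6, 216, 187 and 257 and replicate 2 scores of 101.1, 88.2, 9.30, 122, 81.6 and 149. Tjp1, which encodes the tight-junction protein ZO-1, held a cluster of 6 sites (chr7:65373638-65388700) averaging 109 and another of 8 sites (chr7:65410912-65424699) averaging 70.9. A 9-site cluster between genes (chr6:129220364-129242133), 25191 bp from Cd69, averaged 103, and its highest site reached 273 and 144. The Pltp cluster averaged 100.9 and the Kcnh1 cluster 91.7, each with 5 sites. A further intergenic cluster of 8 sites, 32507 bp from Adamts1, averaged 91.6 and held a site at 299 and 177. By contrast the 9 sites of an intergenic cluster 24527 bp from Tbc1d1 were level, between 30.5 and 62.0 in replicate 1 and between 13.2 and 21.0 in replicate 2, with none in the highest 10%.

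FOXF1 sites formed a cluster at Foxf1 itself. The 6 sites (chr8:121073490-121086255) ran from the neighbouring lncRNA gene Fendrr, transcribed divergently from Foxf1, to Foxf1. Their replicate 1 scores were 40.3, 19.9, 33.1, 9.37, 168 and 15.0, and their replicate 2 scores 23.7, 8.36, 10.8, 5.48, 90.9 and 9.39. The high one, 134 bases before the Fendrr start, is the Fendrr promoter stretch shown above. The highest site nearby was not clustered: at chr8:121127560, in a chain of 2, it reached 215 and 106. Another 6-site cluster lay 195532 bp from Foxf1 and 119856 bp from Irf8 (chr8:120876550-120888854), with a highest site of 239 and 119.

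Counted by site, clustered sites lay more often inside genes and less often near gene ends than the other shared sites. Within a protein-coding gene and over 1 kb from any gene end were 62.4% of clustered sites (exact 95% interval 60.5% to 64.3%), against 43.8% of all other shared sites (43.3% to 44.2%). Within 1 kb of an end were 7.61% (6.61% to 8.70%), against 17.8% (17.4% to 18.1%). Between genes were 30.0% (28.2% to 31.8%), against 38.5% (38.1% to 38.9%). Single sites were nearest to ends, with 21.0% within 1 kb, and chains of 2 to 4 lay between with 13.2%. Steps inside clusters had a median of 2332.5 bp, so few sites of a cluster can lie within 1 kb of the same end. The share near ends is thus limited by the chaining rule, and the part of the rule in it was not tested. Counting listed transcription starts only, 5.98% of 2443 clustered sites were within 1 kb of one, against 15.8% of 46573 others. The intervals cover counting error only and treat the sites of a cluster as independent, which they are not.

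**Figure D4:**
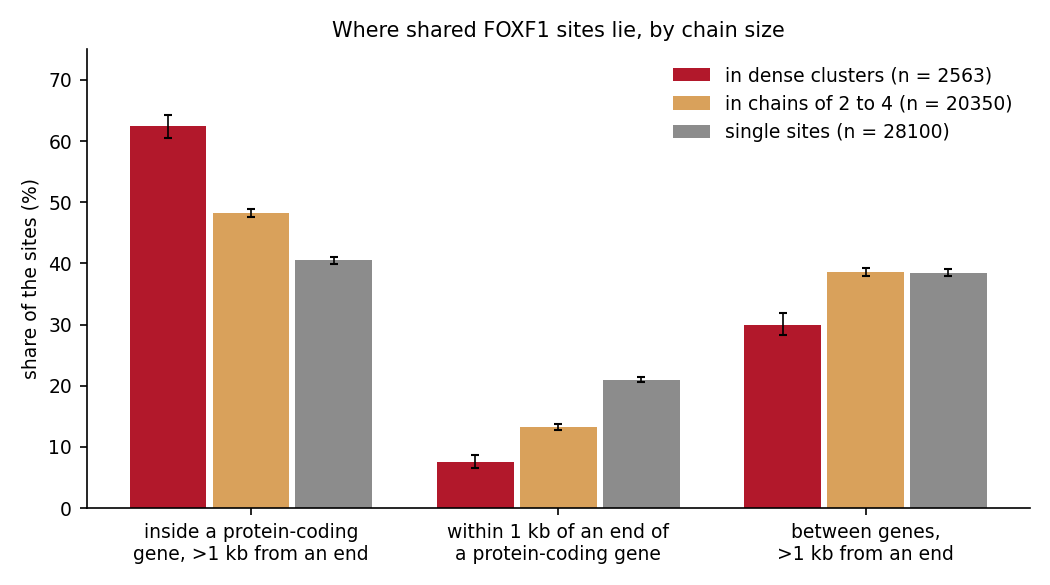
Share of sites in dense clusters (red), chains of 2 to 4 (orange) and single sites (grey) that lie inside protein-coding genes, near gene ends or between genes, with exact 95% binomial intervals. The share inside genes is highest in dense clusters (62.4%) and the share near ends lowest (7.61%).

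As units, 349 of 443 clusters overlapped a protein-coding gene (78.8%, 74.7% to 82.5%), against 410 of 609 chains of 4 (67.3%, 63.4% to 71.0%). A cluster spans more bases than a chain of 4, which moves with this share, and the part of length in it was not tested. Wholly inside 1 gene were 234 clusters (52.8%), 123 (27.8%) covered an annotated gene end, 36 overlapped 2 or more genes and 17 held a whole gene. A listed start was covered by 99 of the 424 clusters on chromosomes with listed starts (23.3%), against 113 of 583 chains of 4 (19.4%). Of the 94 clusters that overlapped no protein-coding gene, 63 were over 20 kb and 22 over 100 kb from the nearest, and 45 overlapped a lncRNA gene. Inside host genes of 20 kb or more with a listed start, the median position was 0.371 of the gene's length from the start over 1177 clustered sites, against 0.375 over 18452 others. The spread around it differed: the 10% of the gene's length next to the start held 19.9% of clustered sites against 25.2% of the others, and the last 25% held 14.3% against 18.6%.

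Few genes had a dense cluster. Within 5 kb there was one at 400 of 21883 protein-coding genes (1.83%), and 366 genes (1.67%) were overlapped by one. Within 50 kb there was one at 877 (4.01%). Any shared site within 5 kb was far commoner, at 13257 genes (60.6%). Genes with a cluster were long, with a median of 65.5 kb, against 25.2 kb for genes with shared sites but no cluster and 17.2 kb for all protein-coding genes. In the longest 25% of genes, above 44.3 kb, 235 of 5471 had one (4.3%). There were 24 genes near 2 or more clusters, and Arhgef3, Bcas3, Cyth3, Nfib and Arhgap26 had 3 each. Arhgef3, a guanine nucleotide exchange factor, led with 21 of its 34 shared sites clustered. Nfib, a nuclear factor needed for lung maturation, had 16 of 41, Arhgap26, a GTPase-activating protein, 15 of 78, and the ubiquitin ligase Rnf144a 15 of 19. Ablim1, an actin-binding LIM protein, and Ets1 had 14 each, of 29 and 21.

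Against that background of 1.83%, the shares of the gene lists ranged from 0% to 36.4%. The lists were chosen with earlier results of these data known, so their shares and intervals are descriptions. Of 33 endothelial surface and junction genes, all with a shared site within 5 kb, 12 had a cluster (36.4%, exact 95% interval 20.4% to 54.9%). In the longest 25% of genes 5 of 14 on this list had one, where 4.3% of all such genes did. Several had every shared site clustered: 8 of 8 at Acvrl1, 5 of 5 at the adhesion gene Icam2, and 4 of 4 at both Mcam and the apelin receptor gene Aplnr. Pecam1, which encodes the junction protein CD31, had 5 of its 10 sites in a cluster whose highest site reached 228 and 121. Plvap, a component of endothelial diaphragms, had 5 of 6, the adhesion gene Esam 5 of 8, and the adhesion receptor gene Adgrf5 8 of 18 with a highest site of 262 and 129. Cdh5, the VE-cadherin gene, had 3 of 8 within 5 kb, from a 5-site cluster at chr8:104094697-104103630. A 6-site cluster with a highest site of 155 and 68.6 lay nearby at chr8:104033585-104044871. Most genes of this list had no cluster within 5 kb, among them Eng, Cldn5, Emcn, Vwf, Nos3 and Robo4.

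Among transcription factors of endothelium, 5 of 23 had a cluster (21.7%, 7.46% to 43.7%). Ets1 had 14 of its 21 shared sites in 2 clusters, with highest sites of 198 and 98.0 in one and 113 and 60.3 in the other. Elk3 had 11 of 13, Tbx3 9 of 9, the venous factor gene Nr2f2 6 of 6, and Sox18, a factor of lymphatic and blood vessels, 3 of 3 within 5 kb. The rest of this list, with Sox17, Tal1, Gata2, Klf2, Epas1 and Erg, had no cluster within 5 kb. Tbx3 is better known from lung mesenchyme, as Tjp1 of the surface and junction list is from epithelial junctions as well. Of 16 VEGF and angiopoietin genes 3 had a cluster (18.8%, 4.05% to 45.6%): the co-receptor gene Nrp2, the ligand gene Angpt1 and Ptprb, which encodes the phosphatase VE-PTP. Nrp2 and Ptprb are also on the surface and junction list. The other genes, Vegfa, Kdr, Flt1, Flt4, Nrp1, Tek, Tie1 and Angpt2 among them, had none. Of 7 lymphatic genes 1 did, the hyaluronan receptor gene Lyve1, with 6 of 6 sites.

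Growth factor genes of the FGF and PDGF pathways had clusters at 5 of 24 (20.8%, 7.13% to 42.2%). Beside the ligand genes Pdgfb and Fgf1, these were genes of feedback inhibitors: Spred2 with 7 of 14 sites clustered, Spry4 with 6 of 6 and Spred1 with 2 of 2 within 5 kb. The Spred1 cluster lay 1332 bp from the gene. Other feedback genes of the list, Spry1, Spry2 and Dusp6, had none. Nor did the receptor genes Fgfr1, Fgfr2, Fgfr3, Fgfr4, Pdgfra and Pdgfrb. The Fgf1 cluster also overlapped Arhgap26. Integrin and focal adhesion genes had 4 of 28 (14.3%, 4.03% to 32.7%), at Itga6, Tns1, Pxn and Ptk2. All 28 had shared sites, 282 in total. In the longest 25% of genes 4 of 23 on this list had a cluster, where 4.3% of all such genes did. Ptch1, the Hedgehog receptor and a target of the pathway, was the only cluster gene of 14 on the hedgehog list (7.14%, 0.181% to 33.9%), with 8 of 17 sites.

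Some lists with few or no clusters had FOXF1 sites at most of their genes, and others did not. Of 26 WNT genes, 25 had a shared site, 81 sites in total, and 0 had a cluster, which allows a share of up to 13.2%. Of 17 Notch genes, 15 had a shared site and 0 a cluster (up to 19.5%). Of 32 BMP and TGF-beta genes, 30 had a shared site and 2 a cluster, Acvrl1 and the co-receptor gene Tgfbr3 (6.25%, 0.766% to 20.8%). Acvrl1 is also on the endothelial surface and junction list. Fibroblast and matrix genes had 2 of 28 (Tbx4 and Hoxa5), smooth muscle and pericyte genes 2 of 24 (Cald1 and Mcam, of which Mcam is also on the endothelial list), and forkhead genes 1 of 21 (Foxf1). No cluster was near any of 29 epithelial genes (up to 11.9%), of which 25 had a shared site, 28 ribosomal protein genes (up to 12.3%), of which 26 did, or 10 mesothelial genes (up to 30.9%), of which 5 did. Nor was one near any of 25 blood and immune genes (up to 13.7%), 26 neuronal genes (up to 13.2%) or 23 genes of other tissues (up to 14.8%), but there only 7, 11 and 4 genes had a shared site, where 60.6% of all protein-coding genes did. All lists at 0 have intervals that include the 1.83% of all protein-coding genes, so their shares cannot be told apart from it. Ribosomal protein genes are short, with a median of 3.74 kb, and epithelial genes had a median of 7.40 kb. The endothelial surface genes had a median of 36.1 kb and the WNT genes 44.9 kb. The part of gene length in these counts was not tested.

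**Figure D5:**
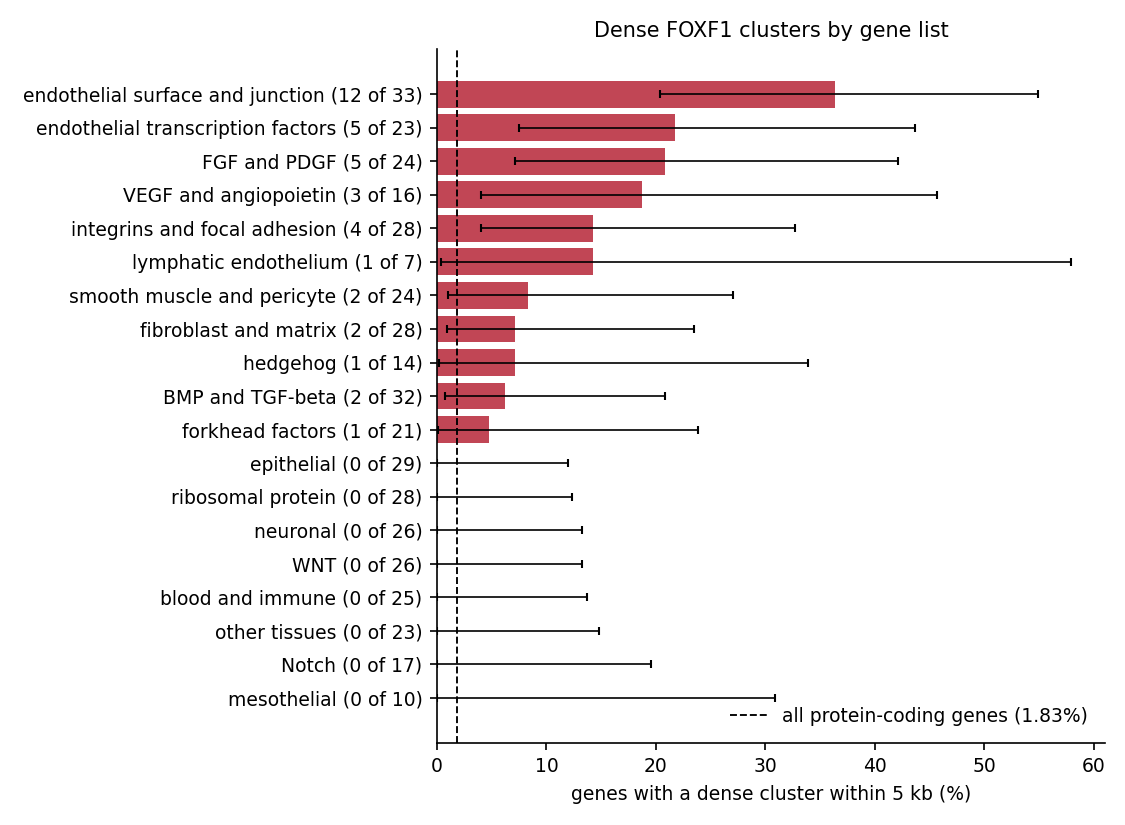
Share of the genes of each list with a dense cluster within 5 kb, with exact 95% binomial intervals and the counts in brackets; the dashed line is the share of all protein-coding genes (1.83%). Endothelial surface and junction genes (36.4%) and endothelial transcription factors (21.7%) stand at the top, and 8 lists are at 0, with intervals that include the dashed line. The lists were chosen with earlier results of these data known.

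Some genes rich in sites had no cluster, as none of their chains reached 5 sites. Foxp1, a forkhead factor of lung epithelium and endothelium, had 52 shared sites within 5 kb of its 597 kb, and the longest chain held 4. Mylk, the myosin light chain kinase gene of smooth muscle, had 31, Lpp 29, Tns3 25 and Itga9 23, each with a longest chain of 4. The endothelial genes Erg, with 19 sites, and Flt1, with 14, reached a chain of 3, and Tek, with 14, a chain of 4. The listed genes that had no cluster within 5 kb but one within 20 kb were the pancreatic enzyme gene Cpa1 at 7596 bp, the photoreceptor gene Gnat1 at 15244 bp, the endothelial receptor gene S1pr1 at 17346 bp and the ETS factor gene Fli1 at 18251 bp.

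Of the clusters, 5 overlapped a miRNA gene. Mature sequences from RefSeq are given with the seed, bases 2 to 8, in capitals, for the miRNAs of 2 clusters. The Mir10a hairpin lay in the Hoxb3/Hoxb4 cluster (chr11:96309517-96319624, 5 sites), 323 bp from a site with scores of 23.0 and 7.64. The Mir322, Mir503 and Mir351 genes lay together in a 6-site cluster on the X chromosome (chrX:53051285-53061635), with the nearest sites at 20.7 and 7.78 for Mir322 and Mir503 and at 50.8 and 16.2 for Mir351.
miR-10a-5p: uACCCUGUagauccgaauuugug
miR-322-5p: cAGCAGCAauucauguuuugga
miR-503-5p: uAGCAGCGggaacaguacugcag
miR-351-5p: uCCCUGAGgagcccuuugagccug

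The capitals show that no 2 of these seeds are identical, AGCAGCA in miR-322-5p and AGCAGCG in miR-503-5p being the closest. The remaining miRNA genes in clusters were Mir7043 in the Rassf4 cluster, Mir6387 near Trib2 and Mir1931 in the Cdk17 cluster. Sites as high as 183 and 89.4 occurred near them, 1596 bp from Mir7043.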

How the data were processed

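FOXF1 ChIP-seq summits of 2 replicates, each a pool of lungs, were deposited as a position and a −log10 score per summit. Per the submitters' processing notes, MACS2 was used with mm10. The aligner, versions, options, read depth and whether scores are of p or q values were not given in the sources used here. Scores were compared within a replicate, except that ranks by mean score pool both, and there replicate 1, with scores a median of 2.29 times those of replicate 2, weighs more. Depth limits which summits were called. Summits on the nuclear chromosomes were paired and chained as the report states with Python 3.11.15, NumPy 2.4.6, pandas 2.3.3 and SciPy 1.17.1, and figures were drawn with matplotlib 3.10.9. Pairing and chaining were tested on simulated data. Gene extents, promoters and miRNAs are RefSeq's (GRCm38.p6); promoters of chromosome 18 were not used. Starts were listed for 17491 of 21883 protein-coding genes and for 294 of the 400 with a cluster. Named were the 20 clusters with most sites (ties by summed mean score), the 5 with the highest mean score, the 10 genes with most clustered sites, up to 4 genes per list, Foxf1 and Fendrr, and other items chosen after their values were seen. Members and gene lists were chosen with earlier results of these data known, and 1 listed gene is not reported here. No test was run, since summit positions chose the members. Alternatives were pairing at 50 and 200 bp, steps of 2.5 and 10 kb, scores of at least 10, either replicate alone, gene overlap and a 2 kb end window.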

Additional observations from a re-analysis of the deposited data

How the results depend on the processing

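The number of dense clusters depended strongly on the rule, and the share of them that overlapped a protein-coding gene did not. Against 443 clusters, holding 5.02% of shared sites and near 1.83% of genes, pairing at 50 bp gave 275 clusters, 3.40% of sites and 1.14% of genes, and pairing at 200 bp gave 5.94% of sites and 2.32% of genes. Steps of at most 2.5 kb gave 54 clusters, 0.57% of sites and 0.238% of genes, and steps of at most 10 kb gave 1358 clusters, 17.6% and 6.12%. Scores of at least 10 left 165 clusters, 2.28% and 0.713%. With 1 replicate alone the counts ranged from 1061 (replicate 2) to 3182 (replicate 1), the shares of sites from 11.0% to 19.9% and the shares of genes from 4.17% to 9.94%, and clusters overlapped a protein-coding gene in 74.9% to 77.8%. Of the 443 clusters, 442 were met by a cluster of either replicate alone, 275 under pairing at 50 bp, 165 under the score minimum and 54 under steps of 2.5 kb. The 442 follow almost from the rule, since every shared site has a summit in each replicate. The share of clusters overlapping a protein-coding gene, 78.8%, stayed between 74.9% and 79.3% under all 7 settings. Clustered sites were fewer near gene ends under all of them, by 5.56 to 11.2 percentage points, and by 9.10 with a 2 kb window. The spacing of chained sites limits this share under every setting.

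The 50 bp and 200 bp pairings of single genes were planned, and the other settings here were chosen after seeing the data. Of the 33 endothelial surface and junction genes, 12 had a cluster, against 9 with pairing at 50 bp, 6 with scores of at least 10, 2 with steps of 2.5 kb, and 18 and 25 with replicate 2 and replicate 1 alone. Endothelial transcription factors, 5 of 23, were 3 with pairing at 50 bp, 2 with steps of 2.5 kb, 1 with scores of at least 10, 13 with replicate 2 alone and 20 with replicate 1 alone. FGF and PDGF genes, 5 of 24, were 0 with steps of 2.5 kb, 3 with scores of at least 10 and 9 with either replicate alone. WNT genes, at 0 of 26, had 2 with steps of 10 kb and with replicate 2 alone and 7 with replicate 1 alone. Epithelial genes, at 0 of 29, had 1 with pairing at 200 bp, 3 with steps of 10 kb and with replicate 2 alone, and 8 with replicate 1 alone. The share of all protein-coding genes was 2.32% with pairing at 200 bp and 6.12% with steps of 10 kb. It was 4.17% with replicate 2 alone and 9.94% with replicate 1 alone, where both lists stood above it. With scores of at least 10 in both replicates the clusters of Foxf1, Elk3, Acvrl1 and Tbx3 were lost. This cut falls mostly on replicate 2, where 23.5% of clustered sites scored below 10, against 2.38% in replicate 1. With pairing at 50 bp the clusters of Foxf1 and Elk3 were lost, and Pdgfb had 6 clustered sites, against 12, and Col4a1 had 5, against 18. With steps of 2.5 kb Pdgfb, Col4a1, Magi1, Ehd4, Elk3, Acvrl1 and Foxf1 had no cluster, and Egfl7 and Tbx3 did. The causes were not tested. No paired analysis was possible because the results come from no test.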
